A study of Homo sapiens with 12 samples.

Results

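The genes described are 10 of the 44147 features in the count files: the Notch receptors NOTCH1, NOTCH2 and NOTCH3, the DNA-binding protein RBPJ, the repressors HES1, HES4 and HEY1, the regulators DTX1 and NRARP, and the transcription factor MYC. The rule lists them by name, as parts of the Notch pathway and its best-known growth target in T cells, and it was written with earlier results of these data known.

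Total RNA of CCRF-CEM cells, an established human T lymphoblast leukemia line, was sequenced in a line labelled SLFN11-knockout and in its SLFN11-positive parent. Each line was labelled as given 100 nM prexasertib, which inhibits CHK1, a checkpoint kinase, for 6 h, or DMSO, its solvent. The 4 groups were knockout cells labelled prexasertib, knockout cells labelled DMSO, parent cells labelled prexasertib and parent cells labelled DMSO, with 3 libraries each and 12 in all. The time in DMSO, the nature of the edit in SLFN11 and whether the knockout line is a single clone are not given in the sources used here. Nor do the labels say if the 3 libraries within a group were grown as separate cultures.

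Notch receptors sit in the cell membrane and are cut by ADAM proteases and then by gamma-secretase when a ligand on a neighbouring cell binds them. The freed intracellular domain enters the nucleus, joins RBPJ on DNA and turns on target genes, among them the HES and HEY repressors, DTX1, NRARP and, in T cells, MYC. The pathway directs T-cell development, and activating NOTCH1 mutations are common in T-cell leukemia; CCRF-CEM is known to carry one.

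The treatment labels carry a conflict that touches every result. In 12 of 12 records the title names a library whose file is attached to a record of the same line with the opposite treatment. Groups below follow the record to which each file is attached and are called labelled prexasertib and labelled DMSO. Under the library names, each treatment difference and each difference between the lines in that response has the opposite sign, and the 2 line comparisons exchange places.

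Each library held 47887791 to 77548202 exonic reads. One library stood apart: the first parent library labelled prexasertib had 30.27% of its reads in introns, against 26.37% and 25.93% in the other libraries of its group and 23.93% to 25.96% in the remaining 9. Some reported calls and values that it moved are given with and without it. Others are given only with it and may differ without it. SLFN11, the targeted gene, had 85.0, 90.7 and 89.4 exonic CPM (counts scaled to library size) in knockout cells labelled prexasertib and 65.9, 66.6 and 69.1 CPM in those labelled DMSO. Parent cells had 117, 119 and 117 CPM under labelled prexasertib and 100.0, 91.2 and 95.2 CPM under labelled DMSO. By exonic reads SLFN11 RNA was thus lower in the line labelled knockout and still present. By intronic reads it was higher in that line, at log2 fold changes of 0.61 under labelled prexasertib and 0.37 under labelled DMSO, without overlap. Its level is therefore a weak check of that label. The 8 T lymphoblast markers summed to 1500 to 1600 CPM in knockout libraries and 1250 to 1480 CPM in parent libraries. All 8 averaged at least 1 CPM. Of 5 B-cell markers, CD79A and CD79B did, with the summed level of the 5 at 40.7 to 43.7 CPM in knockout libraries and 25.1 to 34.9 CPM in parent libraries. Of 4 epithelial markers EPCAM alone did, with a summed level of 8.99 to 10.8 CPM in knockout and 1.14 to 1.87 CPM in parent libraries, while CDH1, KRT5 and KRT19 were under 0.1 CPM. No myeloid, fibroblast or erythroid marker averaged 1 CPM. The part of these markers in the line differences was not tested.

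The promoters of HES1 and HES4 are shown because both genes moved with the labels and both stretches hold the same RBPJ-type site. The sequences are the 250 bases before each gene's start in RefSeq (GRCh38.p14), written 5′ to 3′ on the gene's strand, with the site GTGGGAA in capitals. HES1 lies at chr3:194135898-194136147 on the plus strand and HES4 at chr1:1000098-1000347 on the minus strand.
HES1: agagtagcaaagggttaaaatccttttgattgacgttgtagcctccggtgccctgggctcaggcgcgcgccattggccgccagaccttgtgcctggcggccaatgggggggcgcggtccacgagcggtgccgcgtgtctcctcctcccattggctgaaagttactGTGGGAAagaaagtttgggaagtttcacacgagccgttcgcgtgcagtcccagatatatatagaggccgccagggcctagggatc
HES4: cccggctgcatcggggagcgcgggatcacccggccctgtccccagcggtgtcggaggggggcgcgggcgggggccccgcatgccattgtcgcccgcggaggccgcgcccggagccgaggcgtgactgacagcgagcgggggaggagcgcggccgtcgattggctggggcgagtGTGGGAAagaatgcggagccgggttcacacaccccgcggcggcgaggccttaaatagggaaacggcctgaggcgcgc
The site began 85 bases before the start of HES1 and 77 bases before that of HES4. The longest run the 2 promoters share is TGTGGGAAAGAA, 12 bases that include the site. Searched on both strands, GTGGGAA occurred in 5.43% of 35116 promoter windows of this length, and its core TGGGAA in 20.8%. Among the other genes with an entry, the site was found in 1 of 5 RBPJ windows, and the windows of NOTCH1, NOTCH2, NOTCH3 and NRARP did not hold these letters. A match describes the sequence and is not evidence of binding.

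Per length, MYC had the highest mean of the 10 RNAs in each of the 4 groups, with HES1 second in each. In the authors' exonic TPM (reads per length, scaled to the same total in each library), MYC averaged 60.4 ± 2.58 in knockout cells labelled prexasertib, 49.8 ± 2.42 in knockout cells labelled DMSO, 55.4 ± 1.22 in parent cells labelled prexasertib and 35.5 ± 1.35 in parent cells labelled DMSO (SD, n = 3 each). HES1 followed with 54.4 ± 1.42, 39.3 ± 2.26, 30.1 ± 1.03 and 35.1 ± 2.06 TPM in the same groups. The ranges of MYC and HES1 overlapped in parent cells labelled DMSO and were apart in the other 3 groups. In parent cells labelled prexasertib the range of HES1 overlapped that of NOTCH1 (24.9 ± 8.33 TPM), so second place was not separated there. HES4 stood above RBPJ in both knockout groups, at 21.0 ± 1.08 TPM under labelled prexasertib and 16.8 ± 0.83 under labelled DMSO. In parent cells the ranges of HES4 and RBPJ overlapped, at 6.45 ± 1.16 and 8.62 ± 1.15 TPM under labelled prexasertib and 7.71 ± 0.67 and 7.17 ± 0.48 TPM under labelled DMSO. NRARP and HEY1 came last in each group, with means of at most 0.137 TPM.

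**Figure D1:**
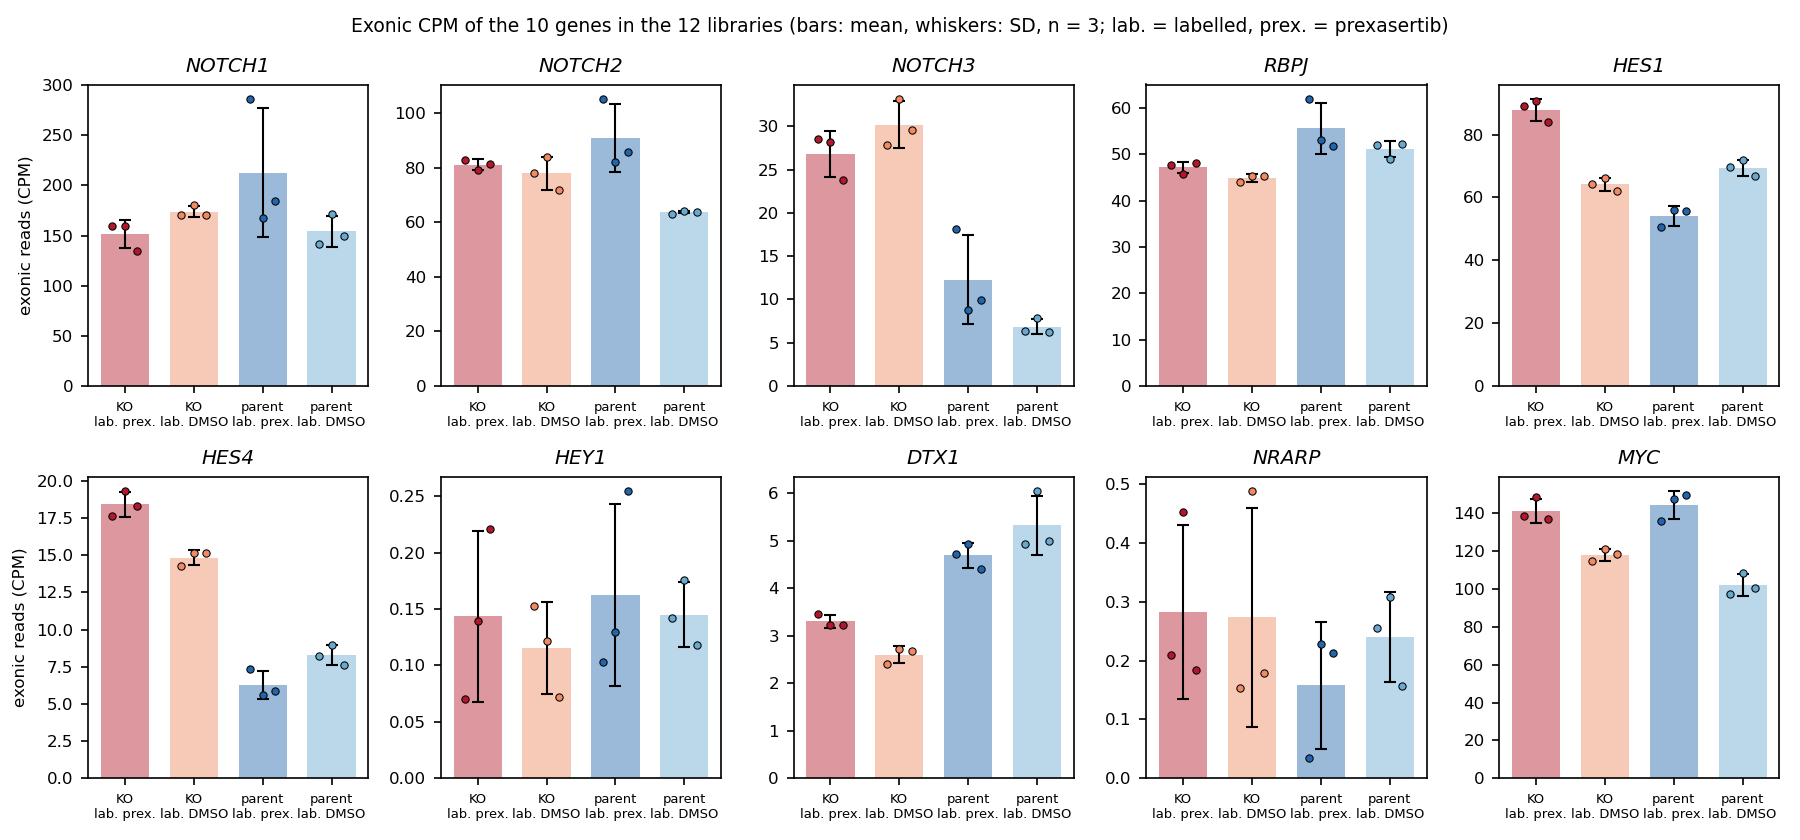
Exonic CPM of the Notch pathway genes and MYC in each of the 12 libraries, by group, with group means and SD (n = 3). HES1 runs in opposite directions in the lines: 84.0 to 90.5 CPM under labelled prexasertib against 61.9 to 66.3 under labelled DMSO in knockout cells, and 50.5 to 56.1 against 66.8 to 71.9 in parent cells.

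Exonic counts were tested over 23045 genes with edgeR's quasi-likelihood test, and a gene was called where its p, adjusted over all genes by Benjamini-Hochberg, was 0.05 or less. Of the 10 genes, 9 passed the filter on low counts; HEY1 did not. Each difference is a log2 fold change, so 1 is a doubling, given with its standard error. Under labelled prexasertib against labelled DMSO, 3 of the 9 were called in knockout cells, all higher (HES1, HES4 and MYC), where 12.9% of all genes were called. In parent cells 5 were called (NOTCH2, NOTCH3 and MYC higher, HES1 and HES4 lower), where 36.3% of all genes were called. Between the lines, knockout against parent, 5 were called under labelled prexasertib (NOTCH3, HES1 and HES4 higher, RBPJ and DTX1 lower; 28.1% of all genes) and 6 under labelled DMSO (NOTCH2, NOTCH3, HES4 and MYC higher, RBPJ and DTX1 lower; 40% of all genes). The response differed between the lines for 5 (HES1, HES4 and DTX1 upward in knockout cells relative to parent, NOTCH2 and MYC downward; 16.8% of all genes). The median over the 9 genes was 0.07 in knockout cells and 0.12 in parent cells, near the medians of 0.00 and 0.04 over all genes. Most of the 9 were not called in knockout cells, and in parent cells the called genes went both ways. In bulk RNA, a change in the share of cells with a transcript and a change in its amount per cell cannot be told apart.

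Reads in introns, which come mostly from transcripts not yet spliced, gave a second readout on separate reads. Of the 10 genes, 8 were tested among 19852; HEY1 had too few intronic reads and NRARP has no intron in the files. The intronic test called 2 of 8 in knockout cells (12% of all genes), 4 in parent cells (30.8%), 3 between the lines under labelled prexasertib (18.8%), 4 between the lines under labelled DMSO (30.3%) and 2 for the line difference in response (9.84%). Intronic CPM is scaled to intronic reads only, so its level is not comparable with exonic CPM. Shares of intronic reads per gene were compared with exact two-sided permutation tests; with 3 libraries against 3 the smallest possible p is 0.1, which adjusted over 32 tests was 0.21, so none could pass. The ranges of the compared groups did not overlap for 34.3% of all genes tested by exonic reads in knockout cells, 43.3% in parent cells, 38.1% between the lines under labelled prexasertib and 53.6% under labelled DMSO. By intronic reads these shares were 37.2%, 39.2%, 33.0% and 47.5%.

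NOTCH1, the receptor that drives most T-cell leukemia with active Notch, showed no exonic difference that passed the test in the fit of all 4 groups, although some did under other settings. It lies at chr9:139388896-139440314 (hg19, as in the files). Knockout cells had 159, 159 and 135 exonic CPM under labelled prexasertib and 171, 180.0 and 171 CPM under labelled DMSO. Parent cells had 286, 168 and 184 CPM under labelled prexasertib and 142, 171 and 149 CPM under labelled DMSO. The highest value belonged to the library with the high intronic share; the knockout groups did not overlap and the parent groups did. The difference was -0.20 ± 0.19 in knockout cells (adjusted p = 0.60) and 0.46 ± 0.19 in parent cells (adjusted p = 0.092). Without the first parent library labelled prexasertib the parent value was 0.16 (adjusted p = 0.25), and without the second it was 0.61 (adjusted p = 0.032). Knockout against parent gave -0.49 ± 0.19 under labelled prexasertib (adjusted p = 0.092) and 0.17 ± 0.19 under labelled DMSO (adjusted p = 0.53). The labelled prexasertib value was -0.21 (adjusted p = 0.16) without the first parent library of that label and -0.63 (adjusted p = 0.033) without the second. On the authors' TPM with limma the parent response was called at 0.55 (adjusted p = 0.024), and knockout against parent under labelled DMSO at 0.45 with the smaller pseudocount of 0.1 (adjusted p = 0.047). DESeq2 called the labelled prexasertib line difference (-0.49, adjusted p = 0.045). Fitted on 2 groups alone, the knockout response (-0.20, adjusted p = 0.034) and the labelled DMSO line difference (0.18, adjusted p = 0.01) were called.

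NOTCH1 intronic reads were steadier and separated the lines under labelled DMSO. Knockout cells had 123, 118 and 105 intronic CPM under labelled prexasertib and 133, 136 and 141 CPM under labelled DMSO. Parent cells had 112, 108 and 113 CPM under labelled prexasertib and 78.0, 99.6 and 98.1 CPM under labelled DMSO. The knockout libraries labelled DMSO were the highest of all 12 and the parent libraries labelled DMSO the lowest. Knockout exceeded parent by 0.57 ± 0.08 under labelled DMSO (adjusted p = 1.9e-05), against 0.05 ± 0.08 under labelled prexasertib (adjusted p = 0.72). The response was -0.25 ± 0.08 in knockout cells (adjusted p = 0.057) and 0.27 ± 0.08 in parent cells (adjusted p = 0.017), and it differed between the lines by -0.52 ± 0.12 (adjusted p = 0.0073). The parent call was lost without the first parent library labelled DMSO (0.17, adjusted p = 0.11). The knockout response was called without that library (-0.25, adjusted p = 0.019), without the second parent library labelled DMSO (-0.26, adjusted p = 0.049) and without the first parent library labelled prexasertib (-0.25, adjusted p = 0.0052), and over intronic reads outside other genes (-0.25, adjusted p = 0.046). Introns took 21.4 ± 0.36% of NOTCH1 reads in knockout cells and 16.2 ± 0.94% in parent cells labelled DMSO (SD, n = 3 each; exact permutation p = 0.1, the smallest possible).

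NOTCH2, a receptor also used by B cells and other tissues, was higher under labelled prexasertib in parent cells and not called in knockout cells. It lies at chr1:120454176-120612240, and its partial copy NOTCH2NL averaged 24.5 CPM. Reads from the shared part that the counting could split between them make NOTCH2 values uncertain, to a degree that was not measured. Knockout cells had 82.9, 79.1 and 81.3 exonic CPM under labelled prexasertib and 78.0, 84.0 and 71.7 CPM under labelled DMSO. Parent cells had 105, 81.9 and 85.7 CPM under labelled prexasertib and 63.1, 64.1 and 63.7 CPM under labelled DMSO. The 3 parent libraries labelled DMSO were the lowest of the 12, below a gap, and the knockout groups overlapped. The response was 0.06 ± 0.07 in knockout cells (adjusted p = 0.70) and 0.51 ± 0.07 in parent cells (adjusted p = 9.3e-06), a difference between the lines of -0.46 ± 0.10 (adjusted p = 0.0036). Leaving out the first parent library labelled prexasertib, the parent value was 0.37 (adjusted p = 2.1e-07) and the difference -0.31 (adjusted p = 7e-04). That difference missed the threshold without the first parent library labelled DMSO (-0.42, adjusted p = 0.051) and when exonic and intronic reads were counted together (-0.27, adjusted p = 0.087).

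Between the lines, NOTCH2 was 0.29 ± 0.07 higher in knockout cells under labelled DMSO (adjusted p = 0.0029) and differed by -0.17 ± 0.07 under labelled prexasertib (adjusted p = 0.10). The labelled DMSO call was lost without the second knockout library labelled DMSO (0.21, adjusted p = 0.056) and over exonic and intronic reads together (0.11, adjusted p = 0.26). The labelled prexasertib value was -0.04 (adjusted p = 0.59) without the first parent library of that label and -0.23 (adjusted p = 0.016) without the second. NOTCH2 introns moved the other way: 83.9, 86.2 and 82.9 intronic CPM in knockout cells labelled prexasertib, 93.9, 98.9 and 95.1 in knockout cells labelled DMSO, 113, 90.7 and 88.7 in parent cells labelled prexasertib, and 123, 105 and 116 in parent cells labelled DMSO. Both labelled prexasertib groups lay toward the low side of their line, without overlap in knockout cells and with overlap in parent cells. The intronic response was -0.19 ± 0.08 in knockout cells (adjusted p = 0.16) and -0.24 ± 0.08 in parent cells (adjusted p = 0.033), and knockout against parent under labelled DMSO gave -0.26 ± 0.08 (adjusted p = 0.02). These intronic calls are fragile: the parent call was lost without the first or the third parent library labelled DMSO or the second or the third labelled prexasertib (-0.21 to -0.17, adjusted p = 0.13 to 0.15), and the line call without the first or the third library of either line under labelled DMSO (-0.25 to -0.21, adjusted p = 0.07 to 0.10). With exonic library sizes both were lost, at -0.02 (adjusted p = 0.94) for the parent response and -0.17 (adjusted p = 0.39) for the lines. Leaving out the first parent library labelled prexasertib, the parent response was -0.36 (adjusted p = 1.5e-05) and the line difference -0.26 (adjusted p = 0.00018). The knockout response was called without that library too (-0.19, adjusted p = 0.013). The line difference under labelled prexasertib was -0.21 (adjusted p = 0.09), with -0.09 (adjusted p = 0.36) without the first parent library of that label and -0.27 (adjusted p = 0.032) without the third. Introns took 26.4 ± 0.52% of NOTCH2 reads under labelled prexasertib against 30.0 ± 0.82% under labelled DMSO in knockout cells, and 28.7 ± 2.41% against 37.0 ± 3.07% in parent cells.

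NOTCH3, a receptor that is itself a Notch target in T-cell leukemia, had the widest gap between the lines of the 9 genes tested under labelled DMSO. It lies at chr19:15270444-15311792. Knockout cells had 28.6, 28.2 and 23.8 exonic CPM under labelled prexasertib and 27.8, 33.2 and 29.6 CPM under labelled DMSO. Parent cells had 18.2, 8.81 and 9.90 CPM under labelled prexasertib and 6.39, 7.82 and 6.29 CPM under labelled DMSO. Every knockout library was above every parent library. NOTCH3 was 1.12 ± 0.25 higher in knockout cells under labelled prexasertib (adjusted p = 0.01) and 2.14 ± 0.26 higher under labelled DMSO (adjusted p = 0.00018). Without the first parent library labelled prexasertib, which stood well above the other parent libraries, the labelled prexasertib value was 1.53 (adjusted p = 6.8e-11). Fitted on the 2 groups alone, that comparison missed the threshold (1.14, adjusted p = 0.089).

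NOTCH3 intronic reads showed the same line difference under both labels. Knockout cells had 17.6, 16.2 and 17.0 intronic CPM under labelled prexasertib and 20.2, 17.4 and 22.1 CPM under labelled DMSO. Parent cells had 3.93, 4.31 and 3.68 CPM under labelled prexasertib and 4.72, 4.37 and 4.52 CPM under labelled DMSO. Knockout libraries lay far above parent libraries, and within each line the 2 labels lay close together. The line difference was 2.09 ± 0.13 under labelled prexasertib (adjusted p = 1.5e-10) and 2.13 ± 0.13 under labelled DMSO (adjusted p = 7e-11), and the response differed between the lines by -0.04 ± 0.19 (adjusted p = 0.93). By exonic reads the response was -0.17 ± 0.24 in knockout cells (adjusted p = 0.75) and 0.85 ± 0.27 in parent cells (adjusted p = 0.037), with a difference of -1.02 ± 0.36 (adjusted p = 0.098). When the first parent library labelled prexasertib was left out, the parent value was 0.42 (adjusted p = 0.0039) and the difference -0.58 (adjusted p = 0.0029); without the second the difference was -1.21 (adjusted p = 0.038). DESeq2 called that difference on all libraries (-1.01, adjusted p = 0.036). The parent call was lost without any one of the 3 parent libraries labelled DMSO or of the 6 knockout libraries (0.76 to 0.92, adjusted p = 0.053 to 0.13), on the 2 groups alone (0.84, adjusted p = 0.15) and with no filter on low counts (0.83, adjusted p = 0.068).

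RBPJ, the DNA-binding partner of all Notch receptors, was slightly lower in knockout cells by exonic reads. It lies at chr4:26165077-26436541, and its pseudogenes make its values uncertain where the counting could split reads. Knockout cells had 47.6, 45.8 and 48.2 exonic CPM under labelled prexasertib and 44.0, 45.4 and 45.3 CPM under labelled DMSO. Parent cells had 62.0, 53.1 and 51.8 CPM under labelled prexasertib and 52.0, 49.1 and 52.3 CPM under labelled DMSO. All 6 knockout libraries lay below all 6 parent libraries. Knockout against parent gave -0.24 ± 0.06 under labelled prexasertib (adjusted p = 0.0039) and -0.19 ± 0.06 under labelled DMSO (adjusted p = 0.014). The labelled prexasertib value was -0.15 (adjusted p = 0.022) without the first parent library of that label. On the authors' TPM these were -0.07 (adjusted p = 0.53) and, with the sign turned, 0.08, and over exonic and intronic reads together both missed the threshold (-0.14, adjusted p = 0.098 and -0.14, adjusted p = 0.075). Without the third parent library labelled DMSO the labelled DMSO value was -0.17 (adjusted p = 0.06). The response was 0.07 ± 0.06 in knockout cells (adjusted p = 0.51) and 0.12 ± 0.06 in parent cells (adjusted p = 0.12); the parent value was 0.01 (adjusted p = 0.90) without the first library labelled prexasertib and 0.17 (adjusted p = 0.045) without the third. On the authors' TPM the parent response of RBPJ was called, at 0.23 (adjusted p = 0.035).

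RBPJ introns separated the labels within each line but passed no test in the fit scaled to intronic reads. Knockout cells had 53.4, 53.8 and 54.0 intronic CPM under labelled prexasertib and 48.8, 48.8 and 42.3 CPM under labelled DMSO. Parent cells had 56.7, 50.7 and 47.4 CPM under labelled prexasertib and 47.0, 42.8 and 45.6 CPM under labelled DMSO. The labelled prexasertib libraries were the higher ones in both lines, without overlap. The response was 0.20 ± 0.08 in knockout cells (adjusted p = 0.12) and 0.20 ± 0.08 in parent cells (adjusted p = 0.082). The knockout value was called without the first parent library labelled prexasertib (0.20, adjusted p = 0.024), when the parent value was 0.12 (adjusted p = 0.23). The parent value was called without the third library of that label (0.26, adjusted p = 0.034) and with exonic library sizes (0.41, adjusted p = 0.022).

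HES1, the repressor most used as a readout of Notch, was higher under labelled prexasertib in knockout cells and lower in parent cells. It lies at chr3:193853934-193856521. Knockout cells had 89.1, 90.5 and 84.0 exonic CPM under labelled prexasertib and 64.2, 66.3 and 61.9 CPM under labelled DMSO. Parent cells had 50.5, 56.1 and 55.8 CPM under labelled prexasertib and 69.6, 71.9 and 66.8 CPM under labelled DMSO. The knockout libraries labelled prexasertib were the highest of the 12 and the parent libraries of that label the lowest, and no 2 groups overlapped. The response was 0.45 ± 0.05 in knockout cells (adjusted p = 1e-06) and -0.36 ± 0.05 in parent cells (adjusted p = 7.1e-06). The difference between the lines in that response was 0.82 ± 0.08 (adjusted p = 2.1e-08), and it lay between 0.79 and 0.87 when each library was left out in turn. Knockout exceeded parent by 0.70 ± 0.05 under labelled prexasertib (adjusted p = 2.2e-10), a fold of 1.62. Under labelled DMSO the line difference was -0.12 ± 0.05 (adjusted p = 0.096). That small difference was called without the first parent library labelled prexasertib, the second knockout library labelled DMSO, or the second or the third knockout library labelled prexasertib (-0.16 to -0.14, adjusted p = 0.0062 to 0.04). It was also called with a mean CPM of at least 1 (-0.15, adjusted p = 0.013), over exonic reads outside other genes (-0.14, adjusted p = 0.028) and on the 2 groups alone (-0.11, adjusted p = 0.036). On the authors' TPM it was called with the opposite sign (0.16, adjusted p = 0.029).

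HES1 intronic reads followed the exonic ones. Knockout cells had 16.5, 14.6 and 13.1 intronic CPM under labelled prexasertib and 9.71, 9.71 and 9.46 CPM under labelled DMSO. Parent cells had 7.30, 8.57 and 10.7 CPM under labelled prexasertib and 12.6, 11.9 and 11.9 CPM under labelled DMSO. The order of the groups was high in knockout and low in parent under labelled prexasertib, without overlap within either line. The intronic response was 0.61 ± 0.14 in knockout cells (adjusted p = 0.0041) and -0.46 ± 0.14 in parent cells (adjusted p = 0.014), a difference of 1.08 ± 0.19 (adjusted p = 0.0011). Knockout exceeded parent by 0.75 ± 0.14 under labelled prexasertib (adjusted p = 0.00048), and the lines differed by -0.33 ± 0.14 under labelled DMSO (adjusted p = 0.071). Without the first parent library labelled prexasertib the parent response was -0.34 (adjusted p = 0.059), and scaled by the exonic library sizes it was -0.26 (adjusted p = 0.12). The labelled DMSO line difference was called without the first or the third parent library labelled prexasertib (-0.33, adjusted p = 0.025 and 0.05). The share of HES1 reads in introns was 5.46 ± 0.51% under labelled prexasertib and 4.95 ± 0.07% under labelled DMSO in knockout cells, and 5.76 ± 0.60% and 5.39 ± 0.45% in parent cells (SD, n = 3 each).

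HES4, a HES1 relative and Notch target that mice lack, combined a line difference with the same opposed responses. It lies at chr1:934342-935552. Knockout cells had 17.6, 19.3 and 18.3 exonic CPM under labelled prexasertib and 14.25, 15.1 and 15.1 CPM under labelled DMSO. Parent cells had 7.31, 5.58 and 5.85 CPM under labelled prexasertib and 8.21, 8.98 and 7.64 CPM under labelled DMSO. The 4 groups did not overlap, and all 6 knockout libraries were above all 6 parent libraries. Knockout exceeded parent by 1.56 ± 0.09 under labelled prexasertib (adjusted p = 1.3e-12) and by 0.84 ± 0.09 under labelled DMSO (adjusted p = 3.2e-08). The response was 0.31 ± 0.09 in knockout cells (adjusted p = 0.018) and -0.41 ± 0.10 in parent cells (adjusted p = 0.0014), and it differed between the lines by 0.72 ± 0.13 (adjusted p = 0.00026). The knockout response missed the threshold without the first or second knockout library labelled DMSO, or the second or the third labelled prexasertib (0.28 to 0.33, adjusted p = 0.054 to 0.092). On the authors' TPM both responses missed it (0.31, adjusted p = 0.078 in knockout cells and -0.23, adjusted p = 0.083 in parent cells). The difference between the lines stayed between 0.64 and 0.88 when each library was left out, and was 0.88 without the first parent library labelled prexasertib. Without that library the parent response was -0.57 (adjusted p = 8.3e-06).

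HES4 had 1 to 30 intronic reads per library. Knockout exceeded parent by 1.86 ± 0.59 in intronic reads under labelled prexasertib (adjusted p = 0.029), and the other intronic differences of HES4 were not called. That call was lost without the second parent library labelled prexasertib or any one of the 3 knockout libraries of that label (1.34 to 1.92, adjusted p = 0.057 to 0.11), and with exonic library sizes (1.70, adjusted p = 0.073). Without the first parent library of that label the value was 2.52 (adjusted p = 0.0063). The intronic parent response of -1.40 ± 0.60 (adjusted p = 0.083) was called without the first parent library labelled DMSO (-1.80, adjusted p = 0.028) or the first labelled prexasertib (-2.06, adjusted p = 0.023). HEY1, a related repressor on chromosome 8, was close to silent: it had 4 to 12 exonic reads in each library and 0.07 to 0.254 exonic CPM, and was not tested.

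**Figure D2:**
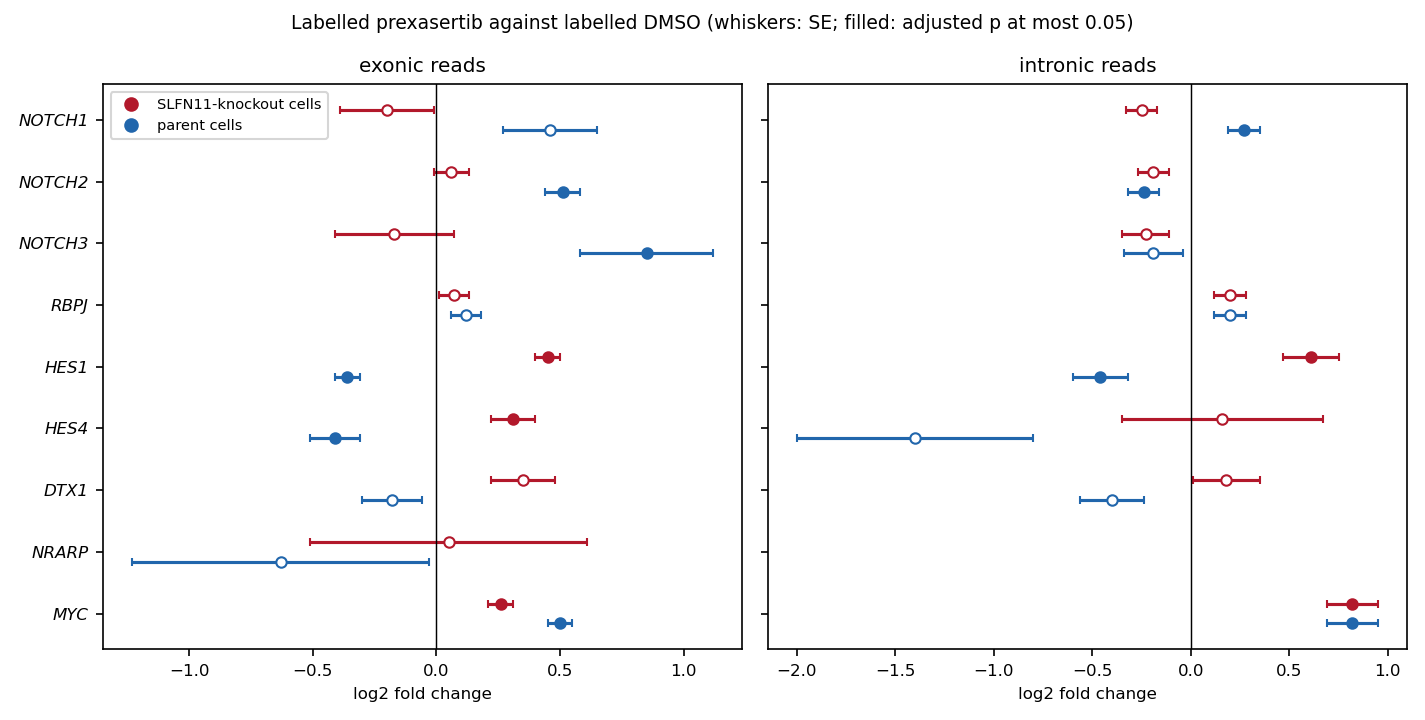
Log2 fold change of labelled prexasertib over labelled DMSO in knockout and in parent cells, for exonic reads (left) and intronic reads (right); whiskers are standard errors and filled points have an adjusted p of at most 0.05. HES1 lies at 0.45 in knockout and -0.36 in parent cells by exonic reads, and MYC at 0.82 in both lines by intronic reads.

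DTX1, a ubiquitin ligase that Notch induces and that modulates Notch signalling, was lower in the line labelled knockout. It lies at chr12:113494514-113535833. Knockout cells had 3.46, 3.22 and 3.23 exonic CPM under labelled prexasertib and 2.40, 2.73 and 2.67 CPM under labelled DMSO. Parent cells had 4.71, 4.93 and 4.41 CPM under labelled prexasertib and 4.93, 6.04 and 4.99 CPM under labelled DMSO. All knockout libraries were below all parent libraries, and the knockout groups did not overlap. Knockout against parent gave -0.51 ± 0.12 under labelled prexasertib (adjusted p = 0.0026) and -1.04 ± 0.12 under labelled DMSO (adjusted p = 1.3e-07), a fold of 0.487. On the authors' TPM the labelled prexasertib value was -0.18 with an adjusted p of 0.054. DTX1 went the opposite way to HES4 and NOTCH3 between the lines.

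The DTX1 response was 0.35 ± 0.13 in knockout cells (adjusted p = 0.071) and -0.18 ± 0.12 in parent cells (adjusted p = 0.24), with a difference of 0.53 ± 0.17 (adjusted p = 0.034). The difference missed the threshold without the second parent library labelled DMSO, the third labelled prexasertib, the first or the third knockout library labelled DMSO, or the first labelled prexasertib (0.47 to 0.55, adjusted p = 0.054 to 0.085). It was 0.56 (adjusted p = 0.024) without the first parent library labelled prexasertib, when the knockout response was called too (0.35, adjusted p = 0.048), as it was with a mean CPM of at least 1 (0.35, adjusted p = 0.047). With no filter on low counts the difference was 0.54 (adjusted p = 0.054), and on the authors' TPM 0.19 (adjusted p = 0.21). DTX1 introns held 7.10, 6.11 and 5.36 CPM in knockout cells labelled prexasertib, 5.02, 6.60 and 4.78 CPM in knockout cells labelled DMSO, 5.90, 7.47 and 6.94 CPM in parent cells labelled prexasertib and 8.21, 8.69 and 10.0 CPM in parent cells labelled DMSO. Only the parent libraries labelled DMSO stood clear of the rest, above them. The intronic line difference was -0.71 ± 0.17 under labelled DMSO (adjusted p = 0.0025) and -0.12 ± 0.17 under labelled prexasertib (adjusted p = 0.67), with -0.22 (adjusted p = 0.43) without the first parent library of that label.

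NRARP, a small ankyrin-repeat protein that Notch induces and that blocks the Notch complex, was barely read. It lies at chr9:140194083-140196703 and had 2 to 32 exonic reads per library. Knockout cells had 0.21, 0.452 and 0.184 exonic CPM under labelled prexasertib and 0.153, 0.488 and 0.179 CPM under labelled DMSO. Parent cells had 0.0343, 0.227 and 0.212 CPM under labelled prexasertib and 0.255, 0.307 and 0.157 CPM under labelled DMSO. All 4 groups overlapped. No difference of NRARP was called, with standard errors of 0.56 to 0.82, so a difference of that size was not detectable at this depth.

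MYC, the transcription factor of growth and metabolism, was higher under labelled prexasertib in both lines. It lies on chromosome 8. Knockout cells had 139, 149 and 137 exonic CPM under labelled prexasertib and 115, 121 and 118 CPM under labelled DMSO. Parent cells had 136, 147 and 149.8 CPM under labelled prexasertib and 97.4, 109 and 101 CPM under labelled DMSO. The lines overlapped under labelled prexasertib, and under labelled DMSO the parent libraries were lower. The response was 0.26 ± 0.05 in knockout cells (adjusted p = 0.0014), a fold of 1.2, and 0.50 ± 0.05 in parent cells (adjusted p = 4e-08), a fold of 1.41. Knockout exceeded parent by 0.21 ± 0.05 under labelled DMSO (adjusted p = 0.003), and the lines differed by -0.03 ± 0.05 under labelled prexasertib (adjusted p = 0.74), a value that turned to 0.12 on the authors' TPM.

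The exonic response of MYC differed between the lines by -0.24 ± 0.08 (adjusted p = 0.033), which was a marginal call. It was lost without the first or the third parent library labelled DMSO, the second or the third labelled prexasertib, any of the 3 knockout libraries labelled DMSO, or the first or the third labelled prexasertib (-0.23 to -0.16, adjusted p = 0.072 to 0.17). Leaving out the first parent library labelled prexasertib, it was -0.25 (adjusted p = 0.0025). It was also lost with no filter on low counts (-0.23, adjusted p = 0.064) and over exonic and intronic reads together (-0.15, adjusted p = 0.32).

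MYC introns gave a larger response, of the same size in both lines. Knockout cells had 26.5, 32.7 and 27.2 intronic CPM under labelled prexasertib and 16.8, 14 and 18 CPM under labelled DMSO. Parent cells had 19.1, 22.3 and 26.6 CPM under labelled prexasertib and 11.6, 13.5 and 13.4 CPM under labelled DMSO. The labels did not overlap in either line. The intronic response was 0.82 ± 0.13 in knockout cells (adjusted p = 0.00014) and 0.82 ± 0.13 in parent cells (adjusted p = 6.4e-05), with a difference of 0.00 ± 0.19 (adjusted p = 0.99). When the first parent library labelled prexasertib was left out, the parent value was 0.94 and the difference -0.11 (adjusted p = 0.72). The intronic line difference was 0.35 ± 0.13 under both labels (adjusted p = 0.06 under labelled prexasertib and 0.056 under labelled DMSO). Under labelled prexasertib it was 0.24 (adjusted p = 0.15) without the first parent library of that label and 0.48 (adjusted p = 0.013) without the third. Under labelled DMSO it was called without the first or the third parent library labelled prexasertib or the second knockout library labelled DMSO (0.35 to 0.45, adjusted p = 0.0098 to 0.034), and with exonic library sizes (0.44, adjusted p = 0.011).

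Introns took 6.53 ± 0.36% of MYC reads under labelled prexasertib against 4.56 ± 0.56% under labelled DMSO in knockout cells, and 5.54 ± 0.41% against 3.91 ± 0.15% in parent cells (SD, n = 3 each; exact permutation p = 0.1 for each, the smallest possible). PVT1, the long noncoding RNA next to MYC, averaged 1.63 ± 0.18 CPM in knockout cells labelled prexasertib, 1.45 ± 0.08 in knockout cells labelled DMSO, 1.83 ± 0.33 in parent cells labelled prexasertib and 1.57 ± 0.40 in parent cells labelled DMSO. Its groups were within their spread, and no difference of PVT1 was called.

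**Figure D3:**
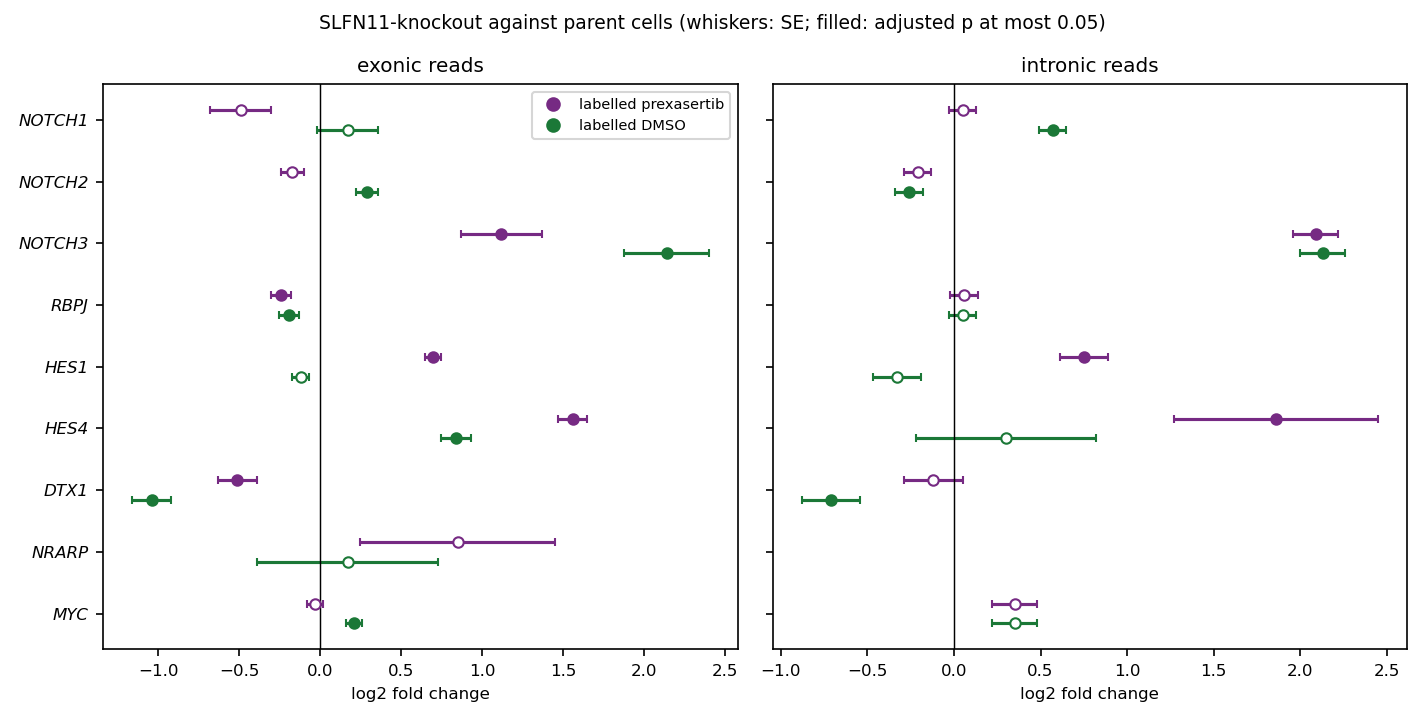
Log2 fold change of knockout over parent cells under labelled prexasertib and labelled DMSO, for exonic reads (left) and intronic reads (right); whiskers are standard errors and filled points have an adjusted p of at most 0.05. NOTCH3 lies at 2.09 and 2.13 by intronic reads, and DTX1 at -0.51 and -1.04 by exonic reads.

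The rest of the pathway was read through 101 further genes in 10 lists, of which 94 passed the filter. DLL3, DLL4, PSEN2, HES2, HES3, HES5 and HEY2 did not. Over all lists, 12 were higher and 7 lower under labelled prexasertib in knockout cells, with a median of 0.07. In parent cells 35 were higher and 11 lower, with a median of 0.14. Among all genes tested, 6.11% were higher and 6.83% lower in knockout cells, and 18.2% were higher and 18.2% lower in parent cells. Between the lines 27 were higher and 15 lower in knockout cells under labelled prexasertib, and 37 higher and 20 lower under labelled DMSO. The shares among all genes were 14.5% and 13.5% under labelled prexasertib and 19.6% and 20.4% under labelled DMSO. Without the first parent library labelled prexasertib the knockout response counts were 26 higher and 11 lower, and the counts for the difference between the lines were 12 higher and 26 lower in place of 7 and 17. For that difference, 9.53% of all genes were higher and 7.32% lower. All these shares are from the fit of all 12 libraries. With each library left out in turn, 857 to 2267 genes were higher and 1048 to 2276 lower in knockout cells, against 1407 and 1575. The difference in response then had 1800 to 2905 higher and 954 to 2137 lower, against 2197 and 1686. List counts without a library, here and below, therefore cannot be set against these shares.

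Of 3 ligands and the remaining receptor, 4 weakly expressed genes, 3 differed between the lines (28.1% of all genes under labelled prexasertib and 40% under labelled DMSO). JAG2, a ligand, averaged 1.40 ± 0.07 CPM in knockout against 0.863 ± 0.27 CPM in parent cells labelled prexasertib (0.68 ± 0.24, adjusted p = 0.032) and 1.34 ± 0.09 against 0.817 ± 0.19 CPM under labelled DMSO (0.72 ± 0.23, adjusted p = 0.016). NOTCH4, a receptor of endothelial cells, was lower in knockout cells at -0.60 ± 0.22 under labelled prexasertib (adjusted p = 0.041) and -0.55 ± 0.22 under labelled DMSO (adjusted p = 0.043). Without the first parent library labelled prexasertib, the labelled prexasertib values were 0.64 for JAG2 (adjusted p = 0.066) and -0.61 for NOTCH4 (adjusted p = 0.056). DLL1, a ligand named after its values were seen, was lower in knockout cells too (-1.93 ± 0.55, adjusted p = 0.0091 under labelled prexasertib and -1.77 ± 0.45, adjusted p = 0.0026 under labelled DMSO), at means of at most 0.619 CPM. JAG1, a ligand named after its values were seen, was not called between the lines (0.11 ± 0.34, adjusted p = 0.85 under labelled prexasertib and -0.09 ± 0.32, adjusted p = 0.86 under labelled DMSO). None of the 4 genes tested here was called for the label in either line.

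Among 8 proteolysis genes tested, 4 were lower and 1 higher under labelled prexasertib in knockout cells (6.83% and 6.11% of all genes). In parent cells 1 was higher and 2 lower (18.2% of all genes each way), or 3 and 3 without the first parent library labelled prexasertib. The lower ones in knockout cells included the gamma-secretase subunits APH1B at -0.23 ± 0.06 (adjusted p = 0.015) and PSENEN at -0.22 ± 0.07 (adjusted p = 0.037). NCSTN, a further subunit named after its values were seen, was at -0.20 ± 0.06 (adjusted p = 0.023). ADAM10, the first protease to cut the bound receptor, was the called higher gene in both lines, at 0.19 ± 0.05 in knockout cells (adjusted p = 0.0085, named there after its values were seen) and 0.20 ± 0.05 in parent cells (adjusted p = 0.0014). ADAM17, a related protease, was lower in parent cells (-0.13 ± 0.05, adjusted p = 0.046). APH1B separated the lines, at 24.0 ± 0.54 against 17.0 ± 1.14 CPM under labelled prexasertib and 28.3, 28.4 and 27.9 against 15.3, 14.3 and 16.1 CPM under labelled DMSO (0.89 ± 0.07, adjusted p = 2.6e-11).

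Of the 5 glycosylation genes, which tune the receptor's choice of ligand, MFNG (0.28 ± 0.06, adjusted p = 0.00046) and POFUT1 (0.22 ± 0.05, adjusted p = 0.0011) were higher in parent cells under labelled prexasertib. LFNG, named after its values were seen, was the one lower there (-1.33 ± 0.27, adjusted p = 0.00031), at 0.581 ± 0.09 against 1.46 ± 0.26 CPM. Among all genes, 18.2% were higher and 18.2% lower in parent cells. In knockout cells RFNG was lower (-0.28 ± 0.09, adjusted p = 0.05) and none was higher, where 6.83% of all genes were lower and 6.11% higher. Without the first parent library labelled prexasertib 1 was higher, a count to which these shares do not apply. POGLUT1 was lower in knockout cells when the lines were compared under labelled DMSO (-0.37 ± 0.07, adjusted p = 5.8e-05).

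Coactivators of the Notch complex showed a large line difference at MAML3, a Mastermind protein. MAML3 had 1.30 ± 0.05 against 4.30 ± 0.66 CPM under labelled prexasertib (-1.72 ± 0.16, adjusted p = 8.4e-09) and 1.24 ± 0.20 against 3.51 ± 0.42 CPM under labelled DMSO (-1.51 ± 0.16, adjusted p = 3e-08). In total 1 of 8 was higher and 3 lower in knockout cells under labelled prexasertib (14.5% and 13.5% of all genes). Under labelled DMSO 1 was higher and 2 lower (19.6% and 20.4% of all genes), or 1 and 4 without the first parent library labelled prexasertib. CREBBP, a histone acetyltransferase, was among the lower ones at -0.86 ± 0.27 (adjusted p = 0.048), with parent values of 78.6, 36.6 and 37.9 CPM, and stood at -0.40 (adjusted p = 8.4e-06) without the first parent library. The acetyltransferase KAT2A was higher under labelled prexasertib in parent cells (0.51 ± 0.06, adjusted p = 5.1e-08) and its response differed between the lines by -0.44 ± 0.08 (adjusted p = 0.00026).

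The listed corepressors, proteins that help to repress genes, moved in both directions. In parent cells 3 of 10 were higher and 2 lower under labelled prexasertib, where 18.2% of all genes were higher and 18.2% lower. The deacetylase HDAC1 had 163, 189 and 192 against 127, 131 and 127 CPM (0.50 ± 0.05, adjusted p = 5e-08), while the RBPJ-binding CIR1 was at -0.79 ± 0.08 (adjusted p = 2.8e-08) and the Groucho protein TLE1 at -0.55 ± 0.05 (adjusted p = 2.9e-09). TLE1 was lower in knockout cells too (-0.25 ± 0.05, adjusted p = 0.0011), and TLE4, a related protein, was higher (0.15 ± 0.05, adjusted p = 0.038). Between the lines, TLE3 was lower in knockout cells under labelled prexasertib (-0.70 ± 0.08, adjusted p = 3.5e-06) and under labelled DMSO (-0.35 ± 0.08, adjusted p = 0.002). The labelled prexasertib value was -0.56 (adjusted p = 3.6e-10) without the first parent library of that label.

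Turnover and trafficking genes held the called Deltex relatives of DTX1. In knockout against parent cells under labelled DMSO 5 of 10 were higher and 3 lower (19.6% and 20.4% of all genes). DTX4, a relative of DTX1, had 3.26 ± 0.53 against 1.21 ± 0.29 CPM under labelled prexasertib (1.41 ± 0.18, adjusted p = 1.3e-06) and 3.08 ± 0.16 against 0.846 ± 0.14 CPM under labelled DMSO (1.88 ± 0.19, adjusted p = 7.2e-09). DTX3, another relative, was higher as well, by 0.85 ± 0.10 (adjusted p = 2.6e-07) and 0.80 ± 0.10 (adjusted p = 1.8e-07). DTX3 and DTX4 were higher in knockout cells and DTX1 was lower. Of the 3 other HES and HEY genes tested, HES6 alone was called, between the lines under each label. Of all genes, 28.1% were called there under labelled prexasertib and 40% under labelled DMSO. HES6 was 0.89 ± 0.14 higher in knockout cells under labelled prexasertib (adjusted p = 2.8e-05) and 1.14 ± 0.14 higher under labelled DMSO (adjusted p = 1.8e-07).

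Of 8 further Notch targets in T cells, 5 were higher and none lower in knockout cells under labelled prexasertib, where 14.5% of all genes were higher. Under labelled DMSO 6 were higher and none lower, where 19.6% of all genes were higher. PTCRA, the pre-T-cell receptor alpha chain, had 4.60, 4.75 and 4.11 CPM in knockout against 1.51, 1.56 and 1.61 CPM in parent cells labelled prexasertib (1.53 ± 0.14, adjusted p = 5.3e-09). Under labelled DMSO PTCRA had 5.31, 5.26 and 4.09 CPM in knockout against 1.88, 1.99 and 1.75 CPM in parent cells (1.38 ± 0.14, adjusted p = 5.7e-09). CR2, a complement receptor found on some T cells, was higher by 1.46 ± 0.08 (adjusted p = 3.4e-13) and 1.16 ± 0.08 (adjusted p = 1.3e-11), and the cyclin CCND3 by 0.61 ± 0.06 (adjusted p = 6.6e-09) and 0.92 ± 0.06 (adjusted p = 1.3e-12) under labelled prexasertib and labelled DMSO.

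Under labelled prexasertib against labelled DMSO, 3 of these 8 targets were higher in knockout cells (6.11% of all genes) and 5 in parent cells (18.2%), and none was lower. In knockout cells they were CR2 (0.41 ± 0.08, adjusted p = 0.00057), the cytokine receptor IL7R (0.32 ± 0.07, adjusted p = 0.0013) and SHQ1, a ribonucleoprotein assembly factor (0.23 ± 0.05, adjusted p = 0.0057). In parent cells the T-cell factor TCF7 had 391, 317 and 332 against 237, 246 and 229.8 CPM (0.54 ± 0.06, adjusted p = 1.1e-07). IGF1R, a growth factor receptor, was at 0.96 ± 0.28 (adjusted p = 0.025), with 18.3, 9.38 and 8.33 against 7.10, 6.04 and 5.34 CPM, and at 0.49 (adjusted p = 0.00026) without the first parent library labelled prexasertib. The response differed between the lines for TCF7 (-0.47 ± 0.09, adjusted p = 0.00041) and CCND3 (-0.31 ± 0.08, adjusted p = 0.0077). Without the first parent library labelled prexasertib, TCF7 was at 0.42 (adjusted p = 1.6e-10) in parent cells and -0.34 (adjusted p = 1.1e-05) for this difference.

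**Figure D4:**
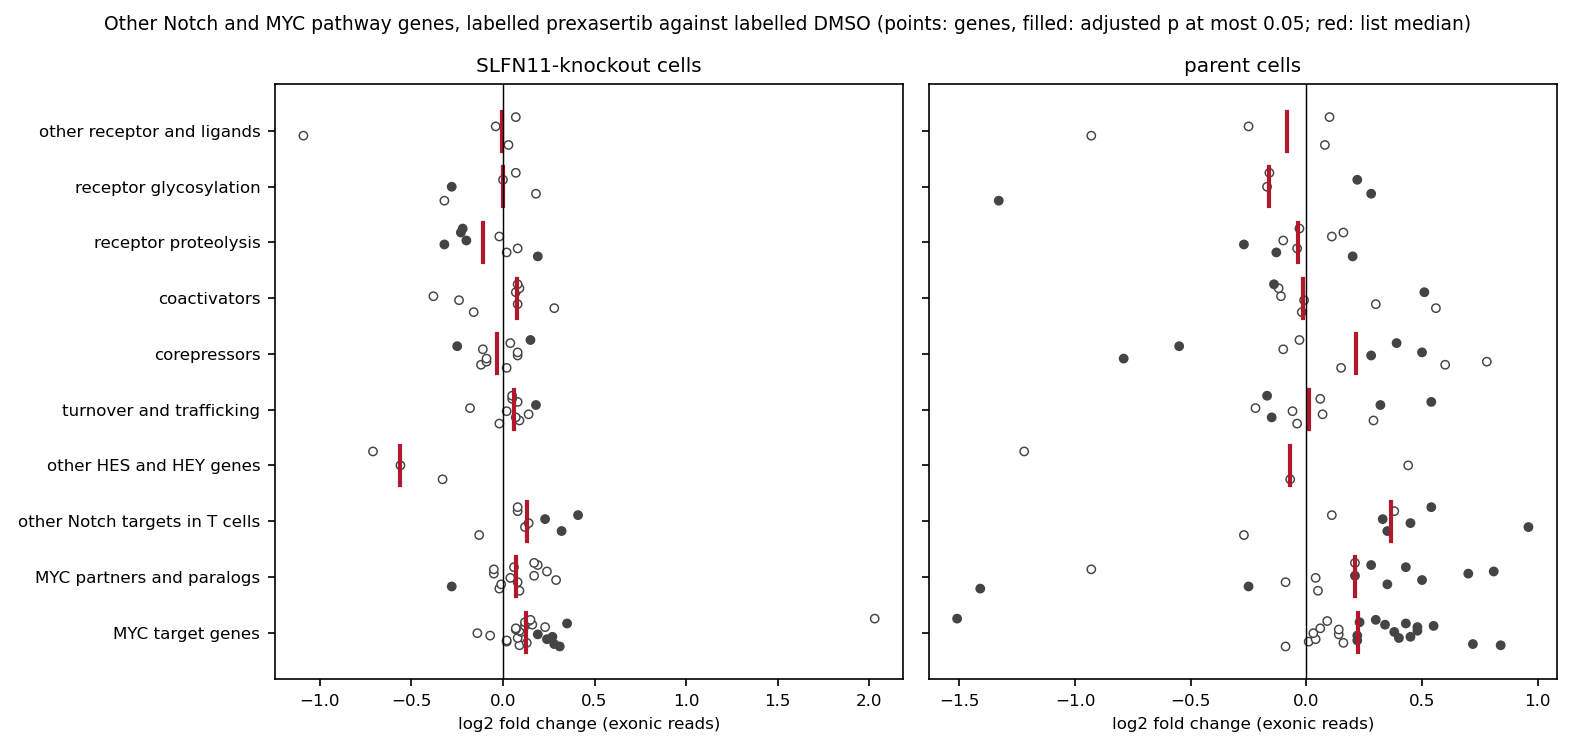
Log2 fold changes by exonic reads of the tested genes of 10 Notch and MYC pathway lists, labelled prexasertib over labelled DMSO, in knockout cells (left) and parent cells (right); each point is a gene, filled points have an adjusted p of at most 0.05 and red lines are list medians. Of 24 MYC target genes, 6 are filled to the right of 0 in knockout cells and 14 in parent cells, where the MYC partner MXD1 lies at -1.41.

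Among 14 MYC partners and paralogs, 7 were higher and 2 lower under labelled prexasertib in parent cells (18.2% of all genes each way). In knockout cells none was higher and 1 lower (6.11% and 6.83% of all genes), or 4 and 1 without the first parent library labelled prexasertib. MXD1, which competes with MYC for its partner MAX, had 14.5, 16.6 and 16.3 against 43.2, 41.2 and 41.8 CPM in parent cells (-1.41 ± 0.06, adjusted p = 1.5e-15). In knockout cells MXD1 was at a fold change near 0 (-0.02 ± 0.06, adjusted p = 0.87), and the response differed between the lines by 1.39 ± 0.09 (adjusted p = 1.7e-11). The paralog MYCN had 14, 13.5 and 13 against 7.10, 8.45 and 7.60 CPM in parent cells (0.81 ± 0.09, adjusted p = 1.2e-07), and its response also differed (-0.56 ± 0.13, adjusted p = 0.0033). MXD3, a relative of MXD1, was the gene called in knockout cells (-0.28 ± 0.06, adjusted p = 0.0038). MAX averaged 52.8 ± 1.02 against 49.6 ± 0.92 CPM in knockout cells and 58.3 ± 2.39 against 56.4 ± 1.53 CPM in parent cells, and was not called in either.

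Of 24 MYC target genes, 6 were higher and none lower under labelled prexasertib in knockout cells (6.11% and 6.83% of all genes). In parent cells 14 were higher and 1 lower (18.2% of all genes each way). In knockout cells the polymerase I subunit POLR1B (0.35 ± 0.05, adjusted p = 1.4e-05), the polyamine enzyme ODC1 (0.31 ± 0.05, adjusted p = 9.6e-05) and SRM, the spermidine synthase (0.28 ± 0.08, adjusted p = 0.031), led. In parent cells the pyrimidine enzyme CAD (0.84 ± 0.12, adjusted p = 0.00036), SRM (0.72 ± 0.08, adjusted p = 1.5e-06) and BOP1, a ribosome assembly factor (0.55 ± 0.06, adjusted p = 5.4e-08), led. The gene called lower there, named after its values were seen, was the cyclin CCND2 (-1.51 ± 0.57, adjusted p = 0.04), at 0.123 ± 0.0402 CPM under labelled prexasertib and 0.353 ± 0.145 CPM under labelled DMSO (SD, n = 3 each). Leaving out the first parent library labelled prexasertib, the counts were 13 higher and 1 lower in knockout cells and 19 higher and none lower in parent cells. The shares of all genes, from the fit of all 12 libraries, do not apply to these counts. The response differed between the lines for 9 of the 24, 2 upward and 7 downward in knockout relative to parent (9.53% and 7.32% of all genes). BOP1 was at -0.43 ± 0.09 (adjusted p = 7e-04). Without the first parent library labelled prexasertib 3 went upward and 13 downward. SRM and CAD were at -0.44 and -0.75 there, and at -0.28 (adjusted p = 0.0085) and -0.53 (adjusted p = 4.6e-07) without it. Their parent responses were 0.57 (adjusted p = 1.3e-09) and 0.63 (adjusted p = 9.1e-12) without it.

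Between the lines, 10 MYC targets were higher and 2 lower in knockout cells under labelled prexasertib (14.5% and 13.5% of all genes). Without the first parent library of that label these were 10 and 4. Under labelled DMSO 15 were higher and 2 lower (19.6% and 20.4% of all genes). TFRC, the transferrin receptor, had 869 ± 23.3 against 736 ± 46.4 CPM (0.24 ± 0.05, adjusted p = 0.00099) and 815 ± 12.4 against 529 ± 13.8 CPM (0.62 ± 0.05, adjusted p = 3.3e-10). TERT, the telomerase subunit, ran against the list: it had 8.59, 9.30 and 8.50 CPM in knockout against 26.6, 21.5 and 22.1 CPM in parent cells labelled prexasertib (-1.41 ± 0.09, adjusted p = 2e-12). Under labelled DMSO TERT had 7.28, 7.53 and 7.77 against 15.3, 18.1 and 16.8 CPM (-1.16 ± 0.09, adjusted p = 4.9e-11).

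Among 14051 genes, those whose exonic log2 CPM ran closest to 4 of the genes over the 12 libraries were found by Pearson's r, given as a description, since the libraries share lines and labels. NOTCH1 ran closest to FOXP4 (r = 0.962), SYMPK (0.96) and SETD1B (0.958). Its value was 286 CPM in the first parent library labelled prexasertib and 135 to 184 CPM in the rest, so these r may rest largely on that library. None of the r given here was computed without it. HES1 ran closest to BCL2 (0.955), TASP1 (0.95) and MTA3 (0.947). For DTX1, AARS (0.971) and FHL2 (0.96) were among the closest. MYC ran closest to DGCR8 (0.992), DNAJC5 (0.992) and COLGALT1 (0.989).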

How the data were processed

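Total RNA from 12 CCRF-CEM libraries was analysed, 3 in each of 4 groups. The authors' deposited files give read counts and TPM per gene, for exons and introns separately, per the file headers. The submitters' processing notes list hg19, Picard 2.9.2, STAR 2.5.4a, Trimmomatic 0.39 and Trim Galore 0.6.2 without roles. The names of the deposited files mark the alignments as deduplicated. The counter, annotation, strand and duplicate settings are not given in the sources used here. Large counts were kept to 6 digits by the authors, 76.5% of exonic counts from 2 to 20 were even, genes missing from a file were taken as 0, 1 was added to starts, and 36 pseudoautosomal Y copies were left out of 44183 features.

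Exonic and intronic counts were each fitted with edgeR 4.0.16 (R 4.3.3; TMM, filterByExpr with a minimum count of 10, robust quasi-likelihood F test) on 4 group means, with Benjamini-Hochberg adjustment over all genes. The fit was also run on simulated counts, and the outcome is not reported here. No simulated library stood apart, so the run does not show how the fit handles such a library. The alternatives used DESeq2 1.42.0, limma 3.58.1 on log2(TPM + 1) and log2(TPM + 0.1), other filters and scalings, a replicate block, and each library left out. Exonic reads per library were 47887791 to 77548202 and intronic reads 16764538 to 26736753.

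All 10 genes are described. From each pathway list, up to 3 called genes with the largest change per comparison could be named, among genes whose mean log2 CPM was 0 or more. The members and lists were chosen with earlier results of these data known. The labels do not say that libraries were separate cultures; p-values therefore measure only the spread between these libraries, which may be technical. Deviations of same-numbered libraries had correlations of -0.33 to 0.18 over 18 pairs, and those of other pairs -0.301 to 0.221. So few pairs cannot exclude a shared culture or day, and the numbers were not used as pairs in the main fit. Some genes that the naming rule picks are not reported here.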

Additional observations from a re-analysis of the deposited data

Results flagged for a closer look

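Each of these results was picked out because the labelled prexasertib response passed a test of its difference between the lines, given as the response in knockout cells minus that in parent cells on the log2 scale. In exonic reads the difference was 0.82 for HES1, 0.72 for HES4, 0.53 for DTX1, -0.46 for NOTCH2 and -0.24 for MYC. In intronic reads it was 1.08 for HES1 and -0.52 for NOTCH1. The calls for DTX1 and MYC were lost when any of several single libraries was left out. That for NOTCH2 was lost by edgeR without the first parent library labelled DMSO (-0.42, adjusted p = 0.051). Over exonic and intronic reads together it was lost too (-0.27, adjusted p = 0.087). Under the library names in the titles every one of these differences has the opposite sign.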

How the results depend on the processing

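Of 511 values of the genes under other settings, 452 kept direction and call, 19 became called, 25 lost the call and 15 changed sign; of 1020 with a library left out these were 925, 26, 44 and 25. The causes were not tested.

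With TPM in limma (pseudocounts 1 and 0.1), genes higher and lower were 6364 and 6475, and 2505 and 2510, in parent cells (4183 higher and 4191 lower by edgeR); 927 higher (pseudocount 0.1) and 1031 and 992 lower in knockout cells (1407 and 1575). Between the lines they were 6358 and 6328 higher and 1327 and 1353 lower under labelled prexasertib (3349 and 3118), where 3 of the genes described were called and not 5, and 9197 and 9280 higher and 1833 and 1847 lower under labelled DMSO (4515 and 4697). For the difference in response they were 1128 and 1109 higher and 2905 and 2938 lower (2197 and 1686). TPM moved the median gene by 0.09 and 0.16 in parent cells and 0.15 and 0.25 between the lines under labelled DMSO.

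Fitting the knockout groups alone gave 2402 higher and 2476 lower. Under the library names, 4697 genes were lower between the lines under the prexasertib name and 3118 under the DMSO name. The difference in response was called for 3 of the genes with no filter and 3 over all reads. Intronic counts with exonic library sizes gave 5626 higher and 1604 lower in parent cells (3021 and 3101), 531 higher in knockout cells (1157), 966 higher between the lines under labelled prexasertib (1910), 2013 lower under labelled DMSO (3186), and 392 higher and 1229 lower for the difference in response (1155 and 798).

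Signs changed over all reads for NOTCH2 in knockout cells (-0.01), MYC between the lines under labelled prexasertib (0.03) and the RBPJ difference in response (0.00). On TPM they changed for MYC under labelled prexasertib (0.12), HES1 under labelled DMSO (0.16) and RBPJ under labelled DMSO (0.08 and 0.09). For introns with exonic library sizes they changed for NOTCH3 in parent cells (0.02), NOTCH1 and RBPJ between the lines under labelled prexasertib (-0.08 and -0.08), and the differences in response of MYC (-0.21), NOTCH2 (-0.18) and RBPJ (-0.22).

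With each library left out, knockout cells had 857 to 2267 genes higher and 1048 to 2276 lower, and the difference in response had 954 to 2137 lower with 3 to 6 of the genes called. In introns knockout cells had 644 to 2302 higher, 764 to 2067 lower and 2 to 5 of the genes called, the lines under labelled prexasertib had 2 to 5 called, and the difference had 703 to 1596 higher and 422 to 1327 lower. NRARP ran over -0.46 to 0.77 in knockout cells and -0.57 to 0.45 under labelled DMSO, MYC over -0.07 to 0.00 under labelled prexasertib, and the RBPJ difference over -0.09 to 0.07. Intronic HES4 ran over -0.01 to 0.29 in knockout cells and -0.10 to 1.02 under labelled DMSO, and the intronic differences over -0.11 to 0.13 for MYC, -0.01 to 0.17 for NOTCH2, -0.13 to 0.03 for NOTCH3 and -0.06 to 0.08 for RBPJ.

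The titles do not say what the replicate numbers mark. With a replicate block, parent cells had 4187 genes higher and 4194 lower, NOTCH3 in parent cells was not called (0.83, adjusted p = 0.061 by edgeR), and intronic NOTCH1 in knockout cells (-0.25, adjusted p = 0.044) and MYC between the lines (0.36 and 0.35, adjusted p = 0.035 and 0.036) were.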
